A study of Bubalus bubalis with 6 samples.

Results

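The genes of glycolysis and glycogen metabolism were followed in buffalo muscle stem cells (MuSCs) as they passed from proliferation to differentiation. The set was given as 40 gene symbols of the pathway, by a rule that names genes and uses no measured value, although earlier results of these data were known when it was written. The gene table lists 36 of them among its 24616 genes, and SLC2A3, GAPDH, PGAM1 and ENO1 were not analysed here. All MuSCs were primary cultures from water buffalo (Bubalus bubalis) fetal longissimus muscle with no genetic change stated. The 3 GM samples were proliferating cells in growth medium (high-glucose DMEM with fetal bovine serum), and the 3 DM samples were cells moved at near confluence to differentiation medium (DMEM with a low level of horse serum), in which they fused into myotubes. Neither the labels nor the methods say how many fetuses or cultures the 6 samples came from, so p-values measure only the spread between these samples, which may be technical. The polyadenylated RNA libraries gave 35615864 to 40305237 counts on genes per sample.

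Glycolysis splits glucose into pyruvate, which is passed to mitochondria or reduced to lactate and exported, and it makes ATP without oxygen. Muscle also stores glucose as glycogen and breaks it down when it contracts. Many steps are run by isozymes, enzymes of like activity encoded by separate genes, and adult skeletal muscle is known for its own forms of several of them, such as PYGM, PGAM2, ENO3 and the insulin-regulated glucose carrier SLC2A4. Proliferating cells are known for high glucose uptake through SLC2A1 and for release of lactate.

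The labelled cell type was checked against marker lists. Over all tested genes 15.0% were called higher in DM and 10.3% lower, and the counts called here are to be read against these shares. All 17 listed myotube markers were called higher in DM, and their summed level was 513 to 1009 CPM (counts scaled to an equal sequencing depth after TMM normalization) in GM samples and 7832 to 11395 CPM in DM samples. Of 12 myoblast markers 3 were called higher (MYF6, CHRNA1, MYOG) and 3 lower (PAX3, MYF5, ITGA7). PAX3 was called from only 4, 6 and 2 counts in GM and 0 in every DM sample. Fibroblast markers were also abundant, at 36106 to 36884 CPM in GM and 98658 to 124409 CPM in DM, with 7 of 11 tested called higher and COL1A1, COL1A2 and COL3A1 as the most abundant. Smooth muscle markers summed to 6583 to 6918 CPM in GM and 5306 to 6301 CPM in DM with 1 of 9 called lower, and this list holds DES and actin genes that skeletal muscle cells also express. The other lists were low: adipocyte markers at 7.17 to 9.24 CPM over all samples (2 of 8 called higher, 1 lower), endothelial at 13.6 to 24.4 CPM (1 of 9 higher, 3 lower), immune at 6.57 to 14.1 CPM (1 of 6 higher, 1 lower), and red blood cell markers at no more than 0.486 CPM (1 of 2 higher), with LYZ and SLC4A1 at 0 in every sample. Schwann cell markers summed to 2.33 to 4.85 CPM in GM and 34.4 to 46.6 CPM in DM, where 1 of 3, ERBB3, was called higher. DM replicate 3 stood apart from the other DM samples in the myotube markers. It held the highest of the 3 DM values in 16 of 17 myotube markers and in 2 of 11 fibroblast markers, against 37.7% of all tested genes. In 6 of the 11 fibroblast markers it held the lowest, against 36.7% of all tested genes. The part of these differences in cell makeup in the results below was not tested, and in these bulk samples fewer cells of a type and less RNA per cell cannot be told apart.

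Together, the 36 genes took 1.23% of all gene counts in each GM sample and 0.740, 0.653 and 0.761% in DM replicates 1, 2 and 3. Their summed level was 11904 ± 27.8 CPM in GM and 7434 ± 680.3 CPM in DM (SD, n = 3), a ratio of DM to GM of 0.624. The 6 abundant enzymes GPI, ALDOA, TPI1, PGK1, PKM and LDHA made up most of this, with 9112 ± 33.3 CPM in GM and 5474 ± 582.0 CPM in DM. Genes were called when edgeR's quasi-likelihood test gave an adjusted p under 0.05 and the change was more than 2-fold, a log2 fold change beyond 1 in either direction. By this rule 8 of the 36 rose in DM (22.2%, where 15.0% of all 15576 tested genes rose) and 5 fell (13.9%, where 10.3% of all tested genes fell), while 23 were not called. The 8 that rose were PYGM, PGAM2, ENO3, ALDOC, UGP2, SLC2A4, PFKFB4 and PHKG1. The 5 that fell were SLC2A1, PFKFB3, HK1, HK2 and SLC16A3.

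By adjusted p alone, with no minimum fold change, 20 of the 36 genes (55.6%) were lower in DM, where 31.4% of all tested genes were, and 11 (30.6%) were higher, where 31.6% of all tested genes were. In 21 genes (58.3%) all DM samples lay below all GM samples, against 34.3% of all tested genes. In 11 genes (30.6%) all DM samples lay above, against 34.5%. Only PFKM, FBP2, ENO2 and PDK4 had overlapping groups. The median log2 fold change of the 36 genes was -0.34, and that of all tested genes was 0.03. Most of the genes that were lower by adjusted p were lower by less than 2-fold.

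**Figure D1:**
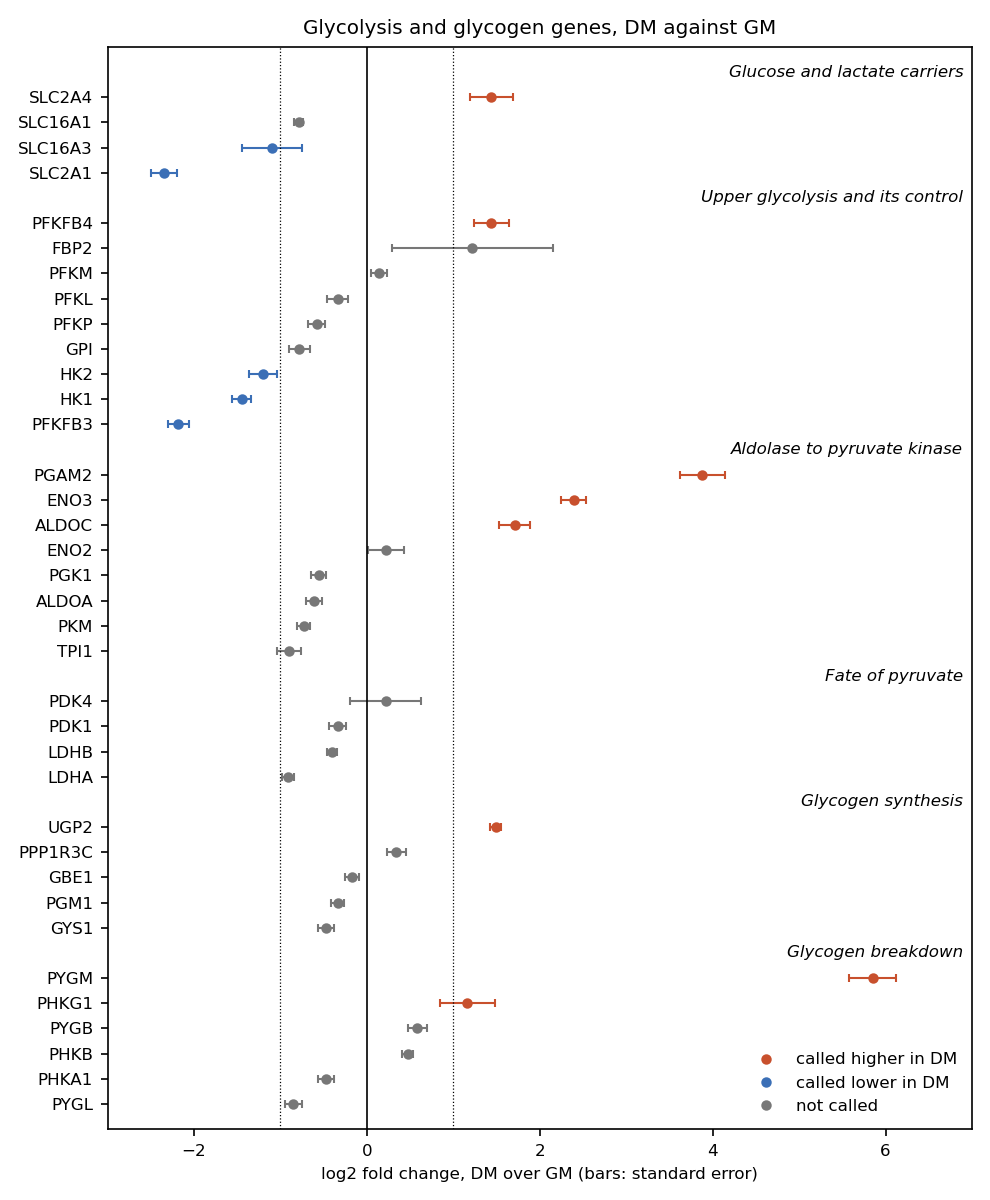
Log2 fold change in DM over GM (horizontal axis) of each of the 36 genes, grouped by role, with the standard error as a bar and dotted lines at a 2-fold change. PYGM at 5.85 and PGAM2 at 3.88 stand farthest to the right, SLC2A1 at -2.35 and PFKFB3 at -2.18 farthest to the left.

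Levels below are RPKM, counts scaled by gene length and by sequencing depth after TMM normalization for library composition, so that genes of different length can be set side by side. Among the carriers, the widespread glucose carrier and the muscle and fat carrier went in opposite directions. SLC2A1, which carries glucose into most proliferating cells, stood at 72.2, 75.5 and 71.6 RPKM in GM replicates 1, 2 and 3 and at 12.4, 11.7 and 18.9 RPKM in DM. All DM values were far below all GM values, with DM replicate 3 the highest of them. SLC2A1 fell by 2.35 on the log2 scale (SE 0.15, adjusted p = 3.56e-07), a level 5.10-fold lower in DM. SLC2A4 was measured at 0.813, 0.592 and 0.786 RPKM in GM and 1.90, 1.66 and 2.38 RPKM in DM, without overlap. It rose with a log2 fold change of 1.44 (SE 0.25, adjusted p = 4.37e-04), and even so its mean in DM, 1.98 ± 0.366 RPKM, was below the 14.3 ± 4.0 RPKM of SLC2A1.

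The pair of monocarboxylate carriers, which move lactate and pyruvate across the membrane, was lower in DM with unequal certainty. SLC16A1 was 65.1, 64.0 and 64.0 RPKM in GM and 37.4, 37.7 and 36.6 RPKM in DM, with replicates close together in both groups. Its log2 fold change of -0.79 (SE 0.055, adjusted p = 5.54e-07) did not reach 2-fold. SLC16A3, known for lactate export from glycolytic cells, was 10.4, 9.83 and 9.32 RPKM in GM and 4.02, 1.93 and 7.79 RPKM in DM. Its DM samples were spread over a wide range, with replicate 3 near the GM level. The log2 fold change of -1.10 (SE 0.35) had an adjusted p of 0.0185. The call was lost with DESeq2 (adjusted p = 0.0696) and when GM replicate 1, GM replicate 2, DM replicate 1 or DM replicate 2 was left out (adjusted p = 0.0596, 0.0555 and 0.0757 without the first 3, and a log2 fold change of -0.72 without DM replicate 2). It was -1.73 without DM replicate 3.

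At the entry to glycolysis, HK1 and HK2, the hexokinases of the set, which trap glucose as glucose 6-phosphate, fell. HK1, the form of most tissues, was 139.6, 141.0 and 132.0 RPKM in GM and 49.3, 41.5 and 60.3 RPKM in DM, with a log2 fold change of -1.45 (SE 0.11, adjusted p = 1.32e-06). HK2, the form that insulin induces in muscle, was 54.5, 52.3 and 50.2 RPKM in GM and 22.2, 16.8 and 29.2 RPKM in DM, with a log2 fold change of -1.20 (SE 0.16, adjusted p = 5.63e-05). For both the groups lay well apart and DM replicate 3 was the highest DM sample. HK3, a hexokinase outside the set that was named after its values were seen, went the other way, with 64, 73 and 91 counts in GM and 145, 166 and 264 in DM (log2 fold change 1.49, SE 0.25, adjusted p = 4.36e-04). GPI, which turns glucose 6-phosphate into fructose 6-phosphate, went from 491 ± 5.69 to 286 ± 59.3 RPKM (log2 fold change -0.78, SE 0.12, adjusted p = 2.28e-04) and was not called.

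The bifunctional enzymes PFKFB3 and PFKFB4 set the level of fructose 2,6-bisphosphate, the main activator of phosphofructokinase, and moved in opposite directions. PFKFB3, the form with high kinase activity that is known from proliferating cells, was 9.98, 10.4 and 9.0 RPKM in GM and 2.46, 1.72 and 2.30 RPKM in DM. The samples of each group were close together, and PFKFB3 was 4.54-fold lower in DM (log2 fold change -2.18, SE 0.12, adjusted p = 1.34e-07). PFKFB4 was 1.18, 0.936 and 1.27 RPKM in GM and 3.37, 2.53 and 3.26 RPKM in DM, a log2 fold change of 1.44 (SE 0.20, adjusted p = 1.16e-04). In GM the mean of PFKFB3 (9.79 RPKM) was above that of PFKFB4 (1.13 RPKM), and in DM the order was turned, at 2.16 ± 0.389 against 3.05 ± 0.453 RPKM, with every PFKFB4 value in DM above every PFKFB3 value.

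None of the phosphofructokinase genes, which commit sugar to glycolysis, was called. PFKL (86.4 ± 2.79 to 68.4 ± 14.0 RPKM) and PFKP (67.9 ± 3.15 to 45.5 ± 6.71 RPKM) were lower in DM at log2 fold changes of -0.34 and -0.58 (adjusted p = 0.0351 and 3.71e-04). PFKM, the muscle form, was 7.15, 7.14 and 7.72 RPKM in GM and 7.63, 7.57 and 9.05 RPKM in DM, with overlapping groups (log2 fold change 0.14, SE 0.093, adjusted p = 0.21). FBP2, the muscle fructose bisphosphatase that runs the step backwards, had 4, 0 and 2 counts in GM and 2, 5 and 6 in DM, too few to show a difference (adjusted p = 0.277).

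**Figure D2:**
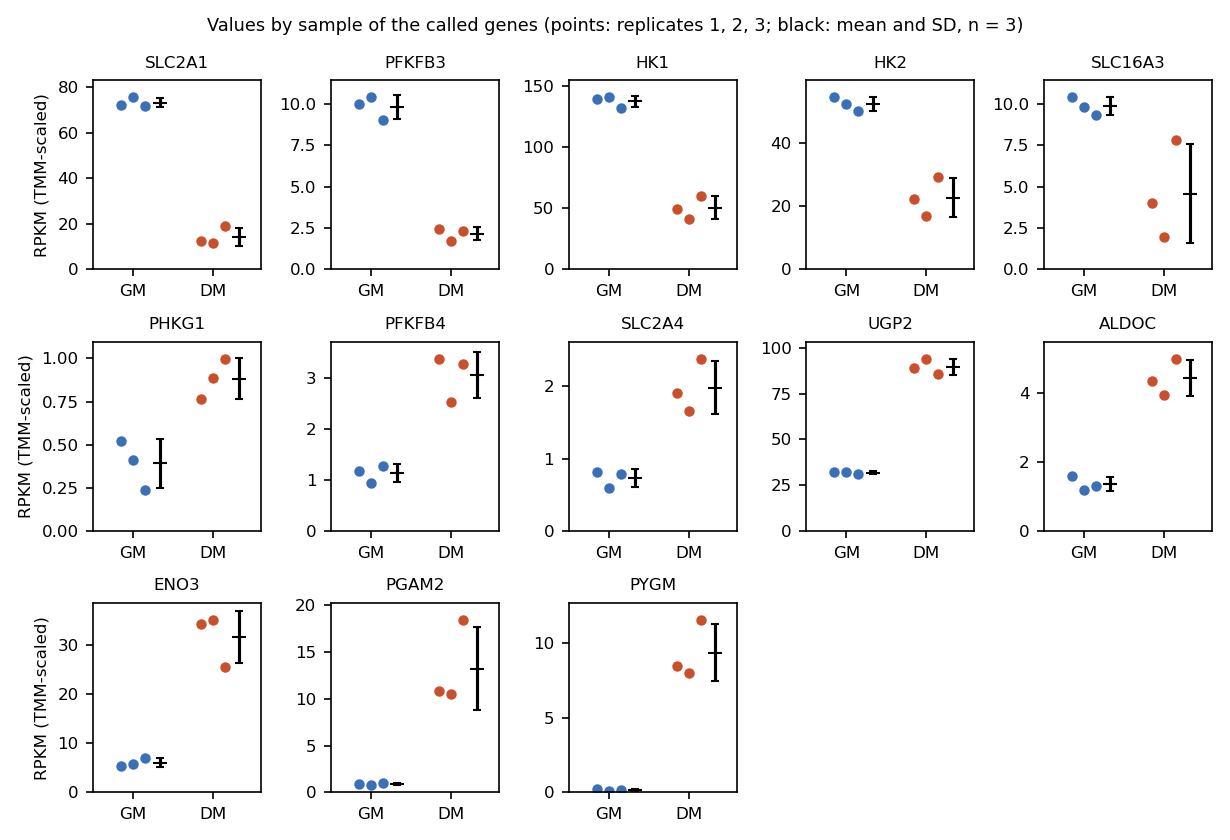
RPKM (vertical axis, from 0) in each GM and DM sample of the 13 called genes, with points for replicates 1, 2 and 3 from left to right and the mean and SD in black. No panel has overlapping groups, which is no separate result, since the genes were picked by their call on these same samples. The DM samples of SLC16A3 run from 1.93 to 7.79 RPKM.

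Of the enzymes from aldolase to pyruvate kinase, the 3 that rose were low in GM, and the abundant ones were lower in DM by less than 2-fold. PGAM2, the muscle phosphoglycerate mutase, was 0.936, 0.792 and 0.962 RPKM in GM and 10.8, 10.5 and 18.4 RPKM in DM, a 14.7-fold rise (log2 fold change 3.88, SE 0.26, adjusted p = 4.21e-07). All DM samples were far above GM, with replicate 3 set apart upward. The log2 fold change was 3.58 without DM replicate 3. ENO3, the muscle enolase, was 5.31, 5.71 and 7.06 RPKM in GM and 34.3, 35.1 and 25.6 RPKM in DM, 5.26-fold higher (log2 fold change 2.39, SE 0.14, adjusted p = 1.77e-07). Here DM replicate 3 was the lowest of the DM samples, the reverse of PGAM2. ENO2, the neuronal enolase, was 1.79, 1.30 and 1.82 RPKM in GM and 1.91, 1.51 and 2.30 RPKM in DM and did not separate the groups (log2 fold change 0.22, SE 0.21, adjusted p = 0.391).

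The aldolases split fructose 1,6-bisphosphate. ALDOC, the form known from brain, rose from 1.59, 1.20 and 1.29 RPKM in GM to 4.35, 3.96 and 5.0 RPKM in DM (log2 fold change 1.71, SE 0.18, adjusted p = 1.18e-05). ALDOA, the main form of muscle and of most growing cells, was 963, 957 and 951 RPKM in GM and 682, 529.9 and 669 RPKM in DM. This difference (log2 fold change -0.61, SE 0.09, adjusted p = 1.55e-04) was below 2-fold, and ALDOA stayed far above ALDOC in every sample. A row with the symbol PGAM4, which is not in the set and was looked at after its values were seen, fell from 802 ± 28.6 to 381 ± 38.6 RPKM (log2 fold change -1.07, SE 0.079, adjusted p = 7.92e-07). In human, PGAM4 is a processed copy of PGAM1, so reads of the 2 genes could be mixed in that row, and how reads with several matches were counted is not given in the sources used here.

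Among the listed genes of the set, the most abundant were GPI, enzymes of the lower chain and both lactate dehydrogenases. GAPDH, PGAM1 and ENO1 are not listed and could not be ranked. In GM the order by mean RPKM was PKM (1630.4), ALDOA (957), LDHA (771), TPI1 (519), GPI (491), PGK1 (465) and LDHB (410.4), and no neighbours in this order overlapped over the 3 samples. In DM it was PKM (983), ALDOA (627), LDHA (409.7), PGK1 (316), LDHB (311), GPI (286) and TPI1 (279), and the ranges of the last 4 overlapped. PKM, the last step, which makes pyruvate and ATP, had a log2 fold change of -0.73 (SE 0.073, adjusted p = 8.37e-06). A single PKM transcript is listed, so the M1 and M2 splice forms could not be told apart. TPI1, which interconverts the triose phosphates, was 507, 538 and 513 RPKM in GM and 275, 210.3 and 351 RPKM in DM (log2 fold change -0.90, SE 0.14, adjusted p = 2.89e-04). It was called lower when DM replicate 3 was left out (log2 fold change -1.09). PGK1, the first enzyme of the pathway to make ATP, had a log2 fold change of -0.56 (SE 0.084, adjusted p = 1.80e-04).

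Both lactate dehydrogenase genes were lower in DM, LDHA by more than LDHB. LDHA, the form that favours lactate, was 779.7, 744 and 789 RPKM in GM and 445, 384 and 400 RPKM in DM (log2 fold change -0.91, SE 0.069, adjusted p = 9.85e-07). It was called lower when libraries were scaled by their size alone (log2 fold change -1.01), a scaling that moved the median of all tested genes from 0.03 to -0.07. LDHB, the heart form, was 404, 406 and 421 RPKM in GM and 303, 324 and 305 RPKM in DM (log2 fold change -0.40, SE 0.058, adjusted p = 1.34e-04). Of the kinases that switch off pyruvate dehydrogenase, PDK1 went from 23.0 ± 0.662 to 18.2 ± 2.58 RPKM (log2 fold change -0.34, SE 0.10, adjusted p = 0.0131). PDK4 was low throughout, at 0.249, 0.210 and 0.265 RPKM in GM and 0.345, 0.376 and 0.122 RPKM in DM. The DM samples lay on both sides of the GM samples, and its log2 fold change of 0.22 (SE 0.41, adjusted p = 0.667) turned to -0.04 on leaving out DM replicate 2 and reached 0.59 on leaving out DM replicate 3.

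**Figure D3:**
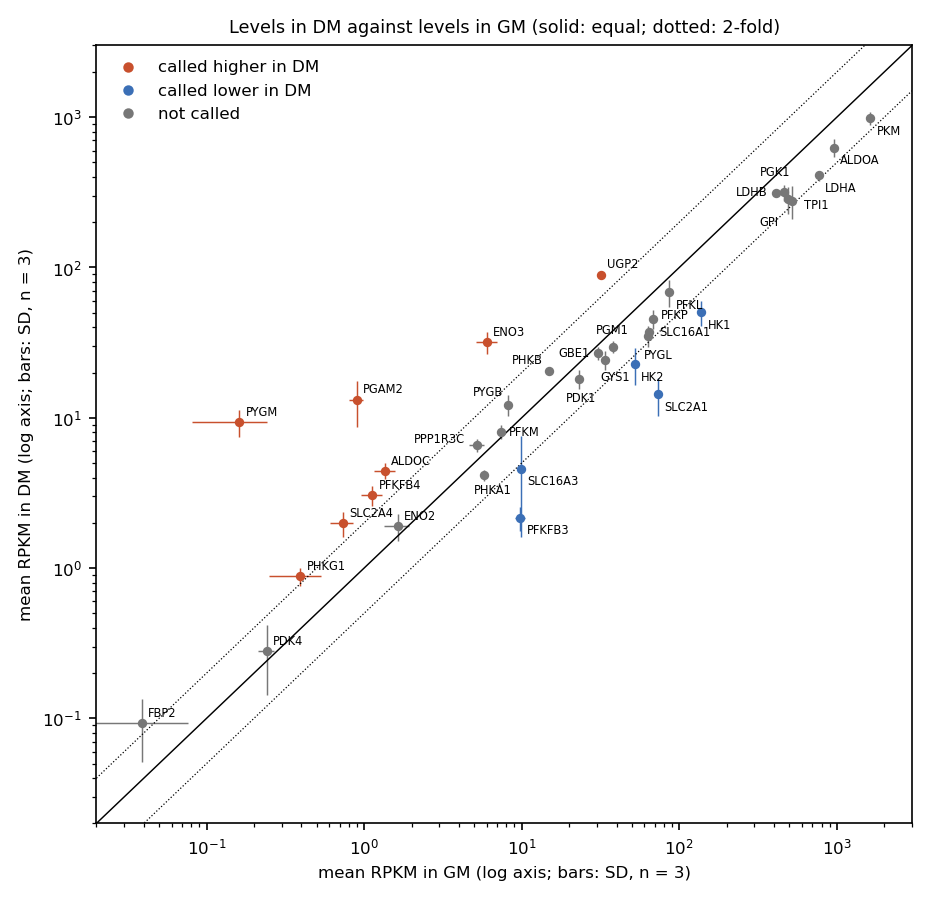
Mean RPKM in DM (vertical log axis) against mean RPKM in GM (horizontal log axis) for the 36 genes, with SD bars (n = 3; the bar of FBP2 runs off the left edge), a solid line of equal levels and dotted lines at 2-fold. The 7 genes above 400 RPKM in GM lie just below the solid line, while PYGM, PGAM2 and ENO3 lie far above it.

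In glycogen synthesis 1 of 5 genes rose, where 15.0% of all tested genes did, and none was called lower. UGP2, which makes UDP-glucose, the sugar donor for glycogen, was 32.4, 32.3 and 30.9 RPKM in GM and 89.0, 94.1 and 85.5 RPKM in DM. Both groups were tight, and UGP2 was 2.81-fold higher in DM (log2 fold change 1.49, SE 0.063, adjusted p = 1.89e-08). The other members changed little. GYS1, the muscle glycogen synthase, was at 33.7 ± 1.41 RPKM in GM and 24.3 ± 3.47 RPKM in DM (log2 fold change -0.47, adjusted p = 0.00128). PGM1, which links glucose 1-phosphate and glucose 6-phosphate, was at 37.8 ± 1.09 and 29.8 ± 2.84 RPKM (log2 fold change -0.34, adjusted p = 0.00262). GBE1, the branching enzyme, had a log2 fold change of -0.17 (SE 0.081, adjusted p = 0.0861). PPP1R3C, which brings protein phosphatase 1 to glycogen, was at 5.18 ± 0.563 and 6.56 ± 0.631 RPKM (log2 fold change 0.34, adjusted p = 0.0224). The summed level of the 5 genes was 395 ± 4.72 CPM in GM and 458 ± 11.1 CPM in DM.

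In glycogen breakdown 2 of 6 genes rose, where 15.0% of all tested genes did, and none was called lower. Glycogen phosphorylase, which frees glucose 1-phosphate, is encoded by PYGM in muscle, PYGL in liver and PYGB in brain. PYGM had 28, 9 and 19 counts in GM and 824, 845 and 1233 in DM, or 0.234, 0.0750 and 0.174 RPKM against 8.45, 8.0 and 11.5 RPKM. It was close to absent in GM and clearly present in every DM sample, and its rise of 57.8-fold was the largest of the set (log2 fold change 5.85, SE 0.27, adjusted p = 3.55e-08). PYGL was 65.9, 62.1 and 61.9 RPKM in GM and 35.3, 29.5 and 40.6 RPKM in DM (log2 fold change -0.85, SE 0.10, adjusted p = 3.05e-05), so it remained above PYGM in every DM sample. PYGB was 8.24, 7.71 and 8.64 RPKM in GM and 11.8, 10.6 and 14.4 RPKM in DM (log2 fold change 0.58, SE 0.11, adjusted p = 0.00113).

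Phosphorylase kinase, which turns the phosphorylase on in response to calcium and adrenaline, is built of several subunits. PHKG1, its muscle catalytic subunit, was 0.524, 0.413 and 0.240 RPKM in GM and 0.764, 0.885 and 0.998 RPKM in DM (log2 fold change 1.16, SE 0.32, adjusted p = 0.00923). Without GM replicate 3, the lowest GM sample, its log2 fold change was 0.91 and the call was lost. PHKG1 overlaps SUMF2 on the opposite strand and strandedness is not given, so reads of the 2 genes cannot be told apart where they overlap. PHKA1, the muscle regulatory α subunit, was at 5.75 ± 0.183 and 4.14 ± 0.362 RPKM (log2 fold change -0.47, adjusted p = 0.00102), and PHKB, the β subunit, at 14.9 ± 0.612 and 20.6 ± 0.736 RPKM (log2 fold change 0.47, adjusted p = 1.02e-04). PHKG1, PHKA1 and PHKB did not all move one way. PHKG2 and PHKA2, further subunit genes outside the set that were named after their values were seen, were not called. The catalytic subunit gene PHKG2 was 25.9 ± 2.03 CPM in GM and 31.4 ± 1.35 CPM in DM (log2 fold change 0.28). On that scale PHKG1 was 0.776 ± 0.283 and 1.74 ± 0.231 CPM, far below PHKG2. PHKA2 was 9.27 ± 0.175 and 9.86 ± 1.33 CPM (log2 fold change 0.09).

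The balance between isozymes was expressed as the share of the form known from adult muscle, or induced there, in the summed RPKM of its family. PGAM1 is not listed, so 8 of 9 families could be computed, and the shares for enolase and the glucose carriers lack ENO1 and SLC2A3. The hexokinase share leaves out HK3, and other shares likewise leave out listed genes outside the set. Of these, SLC2A10 and ENO4 were named after their values were seen. SLC2A10 was 31.0 ± 1.31 CPM in GM and 38.6 ± 2.31 CPM in DM, where SLC2A1 was 185 ± 5.32 and 36.3 ± 10.1 CPM. ENO4 was 4.49 ± 0.478 and 9.65 ± 0.401 CPM, where ENO2 was 3.46 ± 0.623 and 4.03 ± 0.834 CPM. Each share describes only the genes named with it. With 3 samples against 3 the two-sided exact permutation test cannot give a p below 0.1. The PYGM share of the phosphorylases was 0.315, 0.107 and 0.246% in GM and 15.2, 16.7 and 17.4% in DM, a gain of 16.2 percentage points. The ENO3 share of ENO2 and ENO3 was 74.8, 81.5 and 79.5% in GM and 94.7, 95.9 and 91.7% in DM, a gain of 15.5 points. The SLC2A4 share of SLC2A1 and SLC2A4 was 1.11, 0.778 and 1.09% in GM and 13.3, 12.5 and 11.2% in DM, a gain of 11.3 points, or of 7.28 points when raw counts were not divided by gene length. In these 3 shares all DM samples were above all GM samples. A share also rises when the other forms fall. SLC2A1 went from 73.1 to 14.3 RPKM, while SLC2A4 went from 0.73 to 1.98 RPKM.

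The PFKM share of the phosphofructokinases was 4.55 ± 0.326% in GM and 6.70 ± 0.794% in DM, and the HK2 share of HK1 and HK2 was 27.6 ± 0.483% and 30.8 ± 1.92%. PFKM itself was not called (log2 fold change 0.14), and PFKL and PFKP were lower in DM (-0.34 and -0.58). HK2 itself was called lower (-1.20), by less than HK1 (-1.45). The LDHA share of LDHA and LDHB was 65.3 ± 0.569% in GM and 56.8 ± 2.62% in DM, a difference of DM minus GM of -8.44 points. The ALDOA share of ALDOA and ALDOC was 99.9 ± 0.0204% and 99.3 ± 0.0623%. In these 7 families the groups did not overlap and the exact p was 0.1, the smallest possible (0.114 adjusted over the 8 families). The SLC16A3 share of SLC16A1 and SLC16A3 was 13.8, 13.3 and 12.7% in GM and 9.70, 4.88 and 17.5% in DM, so that DM samples lay on both sides of GM (exact permutation p = 0.7).

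**Figure D4:**
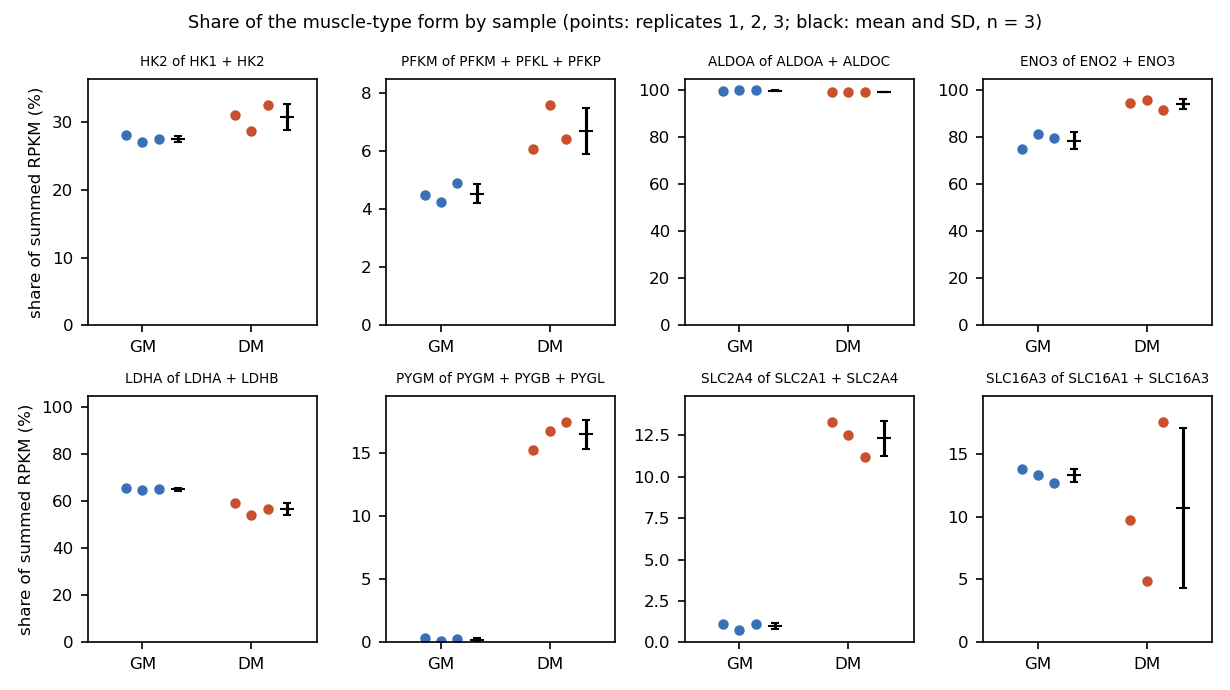
Share in percent (vertical axis, from 0, scaled per panel) of the muscle-type form in the summed RPKM of its family, for 8 families. Only genes of the set are summed. Points show replicates 1, 2 and 3 of each group from left to right, with the mean and SD in black. The PYGM share goes from below 1% in all GM samples to between 15.2 and 17.4% in DM, whereas the SLC16A3 share overlaps between the groups.

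DM replicate 3 had the highest DM value in 21 of the 36 genes (58.3%, where this held for 37.7% of all tested genes) and the lowest in 9 (25.0%, against 36.7%). The median log2 ratio of DM replicate 3 to the mean of DM replicates 1 and 2 was 0.21 for the 36 genes and -0.00042 for all tested genes. It was the highest DM sample in 7 of 9 genes at the entry to glycolysis and in none of the 4 genes of pyruvate metabolism. SLC16A3 had the largest ratio of DM replicate 3 to the mean of the other two, 2.62, followed by PGAM2 (1.72), FBP2 (1.66, from few counts), SLC2A1 (1.57) and HK2 (1.5). The lowest ratios were those of PDK4 (0.337) and ENO3 (0.737). The same sample had the highest summed myotube markers, 11395 CPM against 7832 and 8067 CPM. It had the lowest summed fibroblast markers, 98658 CPM against 124409 and 113835 CPM, a sum made mostly of COL1A1, COL1A2 and COL3A1. Of the 11 fibroblast markers tested, this sample was lowest in 6 and highest in 2, POSTN and DPT. The part of these marker differences in the ratios above was not tested. Without DM replicate 3 the number of genes called higher was 8 and the number called lower was 6.

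**Figure D5:**
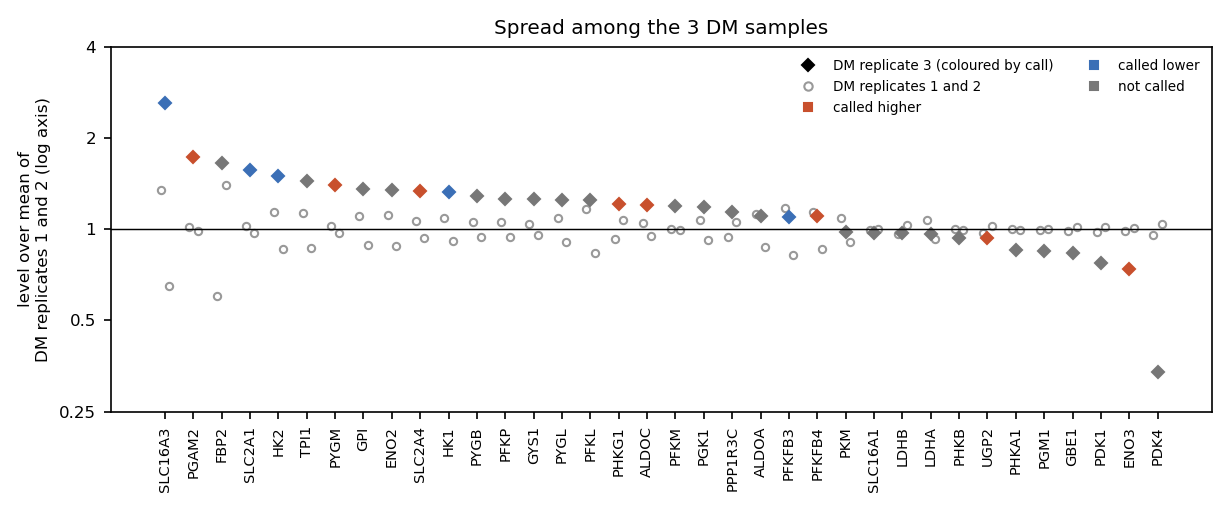
Level of each of the 36 genes in the 3 DM samples, divided by the mean of DM replicates 1 and 2 (vertical log axis), with genes ordered by the value of DM replicate 3 (diamonds). The ratio runs from 2.62 for SLC16A3 to 0.337 for PDK4.

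Genes of the same and neighbouring pathways outside the 36 were counted from lists of known members, to be read against the 15.0% of all tested genes that rose and the 10.3% that fell. Of 18 other glycolytic and gluconeogenic enzymes tested, 5 rose and 1 fell. PC, pyruvate carboxylase, which feeds oxaloacetate to the citric acid cycle, was 90.8 ± 4.42 CPM in GM and 313 ± 21.7 CPM in DM (log2 fold change 1.79, SE 0.071, adjusted p = 1.39e-08). LDHD, a mitochondrial D-lactate dehydrogenase, was also called higher from only 3, 0 and 1 counts in GM and 9, 6 and 4 in DM (adjusted p = 0.0452). Of 18 other glycogen genes 5 rose and none was called lower. PPP1R3A, the muscle subunit that ties protein phosphatase 1 to glycogen, had 4, 1 and 1 counts in GM and 163, 277 and 363 in DM (log2 fold change 7.13, SE 0.45, adjusted p = 2.72e-07). GAA, the lysosomal enzyme that degrades glycogen, rose from 30.2 ± 1.33 to 127 ± 8.88 CPM (log2 fold change 2.08, SE 0.075, adjusted p = 7.43e-09).

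Of 20 other glucose and monocarboxylate carriers and their regulators 5 rose and none was called lower. Over all tested genes 15.0% rose and 10.3% fell, and the other counts here are to be read against these shares. TXNIP, an arrestin that removes glucose carriers from the cell surface, rose from 42.2 ± 1.20 to 202 ± 9.77 CPM (log2 fold change 2.25, SE 0.065, adjusted p = 2.14e-09). Its relative ARRDC4, named after its values were seen, rose as well, from 21.7 ± 1.01 to 79.2 ± 2.36 CPM (log2 fold change 1.86). Of 10 genes of pyruvate entry into mitochondria 1 rose, PDK2, a pyruvate dehydrogenase kinase, from 6.82 ± 0.798 to 14.2 ± 1.19 CPM (log2 fold change 1.06, SE 0.13, adjusted p = 3.01e-05). Neither of the phosphatases that reverse these kinases was called. PDP1 was 27.8 ± 1.53 and 21.3 ± 1.24 CPM (log2 fold change -0.39, adjusted p = 0.00158), while PDP2, named after its values were seen, was 10.3 ± 0.483 and 19.4 ± 3.11 CPM (log2 fold change 0.91, adjusted p = 8.13e-05). Of 8 genes of the pentose phosphate pathway, which branches off at glucose 6-phosphate, 1 fell, RPIA (log2 fold change -1.07, SE 0.17, adjusted p = 2.43e-04).

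Hypoxia-inducible factors are known to drive many glycolytic genes. Of 21 genes for these factors and their targets outside glycolysis, 2 rose and 2 fell, against 15.0 and 10.3% of all tested genes. EPAS1, which encodes HIF-2α, was 34.6, 31.1 and 34.0 CPM in GM and 523, 459 and 264 CPM in DM (log2 fold change 3.64, SE 0.21, adjusted p = 1.64e-07), with DM replicate 3 the lowest DM sample. HIF1A was 277 ± 13.1 and 449 ± 28.7 CPM (log2 fold change 0.70, SE 0.068, adjusted p = 6.51e-06) and was not called. Among the targets ANKRD37 fell, with 115, 70 and 90 counts in GM and 15, 9 and 46 in DM (log2 fold change -1.81, SE 0.48, adjusted p = 0.00698). BNIP3 and BNIP3L, related mitochondrial autophagy receptors named after their values were seen, moved in opposite directions. BNIP3 fell (log2 fold change -1.68, SE 0.20, adjusted p = 3.04e-05) and BNIP3L rose (log2 fold change 1.13, SE 0.081, adjusted p = 6.75e-07). By adjusted p alone 10 of the 21 genes were higher in DM and 5 were lower in DM. Of all tested genes 31.6% were higher and 31.4% lower by that rule. The median over the list was 0.31 on the log2 scale. Of 9 genes for subunits of AMPK, the kinase that senses low energy, and for the complex that activates it (STK11, STRADA and CAB39), 1 rose, the muscle AMPK subunit PRKAG3, from 1.15 ± 0.221 to 7.95 ± 1.52 CPM (log2 fold change 2.79, SE 0.22, adjusted p = 1.15e-06).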

How the data were processed

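PolyA-selected RNA-seq of 3 GM and 3 DM samples was analysed. The raw counts per gene and per mRNA transcript were made by the authors, without normalization. Their methods name HISAT2 and a GTF annotation. The RPKM values deposited by the authors divide these counts by the deposited Length column (another unit, bases) and by the sample's summed counts. The methods name a buffalo assembly, while the genes carry cattle Ensembl identifiers without a build. The submitters' processing notes list Bowtie 0.12.2 with mm8 and mm9. Which aligner and reference gave the counts is therefore uncertain, and positions and sequences are not given. The authors' own log2 fold changes, p-values and q-values were not used, nor was the ncRNA table.

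Genes with at least 10 counts in total (all 36 listed members) were fitted with edgeR 4.0.16 (glmQLFit, glmQLFTest) in R 4.3.3, with TMM and Benjamini-Hochberg adjustment over 15576 genes. Standard errors came from the F statistic. RPKM and CPM were recomputed with TMM-scaled library sizes. Isozyme shares were compared with exact permutation tests in Python 3.11.15 with numpy 2.4.6. Called genes and their isozyme families were named with every sample, other members by value, and of each further list the 2 called genes with the largest change and direct regulators of members. HIF1A, EPAS1, TXNIP and PDP1 were taken as such regulators, though PDP1 reverses the action of PDK1 and PDK4 and does not act on a member itself. The result of 1 gene that this rule names is not reported here. Members and lists were chosen with earlier results of these data known. Same-numbered samples did not deviate together, so the numbers were not treated as pairs. The pipeline was tested on simulated data. Alternatives were DESeq2 1.42.0, other scalings, filters and thresholds, the transcript table, a replicate block and each sample left out. Counting error at this depth is larger for genes with few counts. Among the members these include FBP2, PDK4 (17 to 52 counts per sample), PHKG1 (18 to 73) and SLC2A4 (38 to 136). PYGM and PGAM2 had few counts in GM.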

Additional observations from a re-analysis of the deposited data

How the results depend on the processing

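Of the 36 log2 fold changes, 35 kept their direction under each alternative that tested them (FBP2 was not tested with filterByExpr), and that of PDK4 ranged from -0.04 to 0.59 over the fits with 1 sample omitted. The numbers of members called higher and lower (8 and 5) were 8 and 5 with a replicate block, which changed no call and whose pairing rests on replicate numbers alone (correlations of same-numbered samples -0.0218 to -0.00756). Leaving out each sample gave 7 to 8 higher and 4 to 6 lower. Testing against a 2-fold change gave 6 higher and 3 lower, losing SLC2A4, PHKG1, HK2 and SLC16A3. Dropping the minimum fold change gave 11 higher and 20 lower. The study's RPKM rule for reliable expression kept 30 of 36 members and 4 called higher, since it removes genes that are low in GM, among them PYGM, PGAM2, SLC2A4 and PHKG1. The share of SLC16A3 moved between -5.97 and 0.359 percentage points over the fits with 1 sample omitted, against a difference of -2.55 with all samples. The other 7 shares kept their direction in each alternative run, with that of SLC2A4 at 7.28 points on raw counts without division by length, against 11.3. The share of PGAM2 could not be computed under any setting. FBP2, with at most 6 counts in a sample, is limited by depth.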

Other observations

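The transcript table lists 40 transcripts for the 36 genes, with 2 each for HK1, LDHA, PGK1 and PGM1. Reads that fit both transcripts of a gene appear to be counted on each, since their summed counts exceed the gene's. Within each of these 4 genes the transcripts had nearly equal log2 fold changes, -1.45 and -1.47 for HK1, -0.94 and -0.93 for LDHA, -0.58 and -0.58 for PGK1, and -0.34 and -0.36 for PGM1.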
